A study of Rattus norvegicus with 10 samples.

Results

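The genes described here are the histones and the proteins that modify, read or move nucleosomes. They were found by name in the deposited table, which listed 3334 genes, and 43 matched, 6 histone genes and 37 chromatin regulator genes. A sample was made of both capsules (2) from 1 Sprague-Dawley rat, male and 6 weeks old. The Hypothermia Group (5 rats) had its lenses isolated and kept at 4°C for 8 h in Hibernate-A medium, and the Normal Group (5 rats) had its capsules taken directly after euthanasia, so cooling, isolation, medium and time cannot be told apart. Every listed gene had been selected by the authors as changed between these same rats, so neither a member's direction nor its test is independent evidence, and shares of called genes are shares of a list of changed genes.

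Nucleosomes are spools of core histones (H2A, H2B, H3 and H4) around which DNA is wound, held at their entry by linker histone H1. Most core histone genes are small, lack introns, lie in clusters of near-identical copies and are used when DNA is copied, and their mRNAs end in a stem-loop in place of a poly(A) tail. Enzymes add and remove acetyl and methyl groups on histones, remodelers slide nucleosomes with the energy of ATP, and TET enzymes oxidise methylated cytosine in DNA. The lens capsule carries the lens epithelium, whose cells become fibre cells that condense and then lose their nuclei.

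Counts were divided by the authors' size factors to give normalized counts, and levels of different genes were compared as FPKM, which divides by gene length and depth. The listed genes held between 4792595 and 12415121 counts per rat, a part of each library. Members were called at an adjusted p under 0.05 in the quasi-likelihood test of edgeR, adjusted after Benjamini and Hochberg as if over 17000 genes, a round number for the expressed genes of the tissue. Of 3222 listed genes with enough counts to be tested, 52.3% were called higher and 20.5% lower in the Hypothermia Group (72.9% in either direction), and 63.7% had a log2FoldChange above 0. Among the members, 40 were tested, and 10 were called higher and 26 lower. The histones and regulators went different ways: 3 of the 4 tested histones were called, all higher, while 26 of the 36 tested regulators were called lower and 7 higher.

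The 5′ flanks of the histone genes that could be matched to RefSeq (GRCr8) by name, chromosome and strand are shown, the H2A pair because near-identical copies limit what their counts mean, and Hist1h4m and H1fx, neither of them called, for comparison. Each line gives the 250 bases before the annotated start, 5′ to 3′ on the gene's strand. Capitals mark the letters CCAAT on either strand, and likewise the letters TATAAA of the TATA box, and GGTCCG, a part of the element described in vertebrate H4 promoters.
Hist2h2aa2, chr2:186490765-186491014, minus strand: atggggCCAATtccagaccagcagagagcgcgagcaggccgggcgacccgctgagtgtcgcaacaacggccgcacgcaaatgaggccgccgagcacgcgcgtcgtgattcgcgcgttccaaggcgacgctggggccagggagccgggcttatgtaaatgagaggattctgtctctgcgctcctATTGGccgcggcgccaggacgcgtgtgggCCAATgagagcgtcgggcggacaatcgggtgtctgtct
Hist2h2aa3, chr2:186497021-186497270, plus strand: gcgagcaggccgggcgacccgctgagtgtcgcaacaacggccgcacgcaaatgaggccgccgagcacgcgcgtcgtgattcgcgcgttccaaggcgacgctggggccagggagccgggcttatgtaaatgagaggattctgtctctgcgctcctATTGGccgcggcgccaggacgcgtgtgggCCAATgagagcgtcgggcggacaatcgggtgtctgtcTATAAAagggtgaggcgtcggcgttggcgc
Hist1h4m, chr17:47393514-47393763, plus strand: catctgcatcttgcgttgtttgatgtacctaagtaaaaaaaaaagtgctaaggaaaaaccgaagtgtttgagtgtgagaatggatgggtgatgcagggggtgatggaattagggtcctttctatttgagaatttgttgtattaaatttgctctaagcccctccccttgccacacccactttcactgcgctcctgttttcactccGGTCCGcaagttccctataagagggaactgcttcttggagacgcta
H1fx, chr4:121998898-121999147, minus strand: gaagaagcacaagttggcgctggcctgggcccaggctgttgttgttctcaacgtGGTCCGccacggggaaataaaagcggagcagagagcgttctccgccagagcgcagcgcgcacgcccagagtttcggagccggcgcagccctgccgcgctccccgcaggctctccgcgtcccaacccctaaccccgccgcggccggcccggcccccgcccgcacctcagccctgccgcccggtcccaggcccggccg
The 2 H2A flanks shared an identical run of 221 bases, offset by 29 bases because the annotated starts differ, and RefSeq names the second gene H2ac18. The Hist2h2aa2 window held CCAAT at 3 places and the Hist2h2aa3 window at 2, with 1 TATAAA in the latter. The shared run begins with the Hist2h2aa3 window and ends with the Hist2h2aa2 window. These differences therefore rest on bases that only 1 window covers, and whether the 2 genes differ there cannot be read from the windows. Over all 33469 RefSeq windows of this length, 34.0% held CCAAT, 12.9% TATAAA and 6.74% GGTCCG. The H1fx window (RefSeq symbol H1f10) held 30 CG pairs and the Hist1h4m window 6. RefSeq places Hist1h4b and the identifier of LOC102548682 on other chromosomes than the table does, so neither is shown.

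Of the 3 genes counted here as H4, 2 were tested (Hist1h4b and LOC102548682), and both rose. The histone class of LOC102548682 is uncertain. Hist1h4b (chromosome 4 of Rnor_6.0, 170763605 to 170763916) had normalized counts of 205, 149, 289, 249 and 274 in Hypothermia rats 1 to 5 and of 130, 85.1, 29.4, 53.6 and 85.1 in Normal rats 1 to 5. Every Hypothermia rat lay above every Normal rat, and Normal replicate 1 came closest. The log2FoldChange was 1.61 (standard error 0.34, adjusted p = 0.0110), a 3.05-fold difference, and the FPKM was 44.9 ± 10.9 against 14.8 ± 7.33 (SD, n = 5 each).

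LOC102548682 (chromosome 2, 198380426 to 198380836), counted here with the H4 genes, had the largest change of all members. RefSeq gives its identifier the symbol H4cl1, but on another chromosome. The gene is 411 bases long, where Hist1h4b and Hist1h4m are each 312, so its histone class is uncertain. Its normalized counts were 101, 51.2, 85.4, 65.3 and 175 in the Hypothermia rats and 31.4, 4.09, 3.18, 3.20 and 14.6 in the Normal rats, again without overlap. The log2FoldChange was 3.09 (standard error 0.63, adjusted p = 0.00986), an 8.52-fold difference. The Normal Group was uneven, with replicates 1 and 5 well above the other 3, and without Normal replicate 1 the log2FoldChange was 3.93. Hist1h4m (chromosome 17, 43673294 to 43673605), the third gene counted with H4, was near the limit of counting. It had 6.27 to 13.3 normalized counts in the Hypothermia Group and 2.39 to 7.32 in the Normal Group. It did not pass the filter on low counts, and without that filter its log2FoldChange was 1.47 (standard error 0.46, adjusted p = 0.0530), not called.

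The H2A genes Hist2h2aa2 (chromosome 2, 198381798 to 198382190) and Hist2h2aa3 (198388809 to 198389201) are the copies with the shared flank shown above. Hist2h2aa2 had normalized counts of 22.9, 15.7, 17.6, 22.5 and 33.6 in the Hypothermia rats and 13.9, 2.45, 3.18, 4.00 and 2.75 in the Normal rats. It rose without overlap between the groups, with a log2FoldChange of 2.09 (standard error 0.49, adjusted p = 0.0160), and of 2.80 without Normal replicate 1. Hist2h2aa3 had 21.7, 5.23, 16.3, 5.10 and 91.4 against 4.62, 1.64, 1.59, 6.40 and 2.75, so that the groups overlapped and Hypothermia replicate 5 stood far above the rest. It failed the filter on low counts, and without the filter its log2FoldChange was 2.97 (standard error 0.84, adjusted p = 0.0366).

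These genes form a mirrored block on chromosome 2. LOC102548682 and Hist2h2aa2 lie on the minus strand with 961 bases between them, and Hist2h2aa3 and a further gene, LOC684762 (named here after its values were seen), lie on the plus strand with 964 bases between them. The block spans 10.2 kb, and its outer genes are both 411 bases long and its inner genes both 393. LOC684762 in this block rose as well, from 11.6 ± 6.28 to 69.4 ± 38.7 normalized counts (SD, n = 5 each), with a log2FoldChange of 2.57 (standard error 0.48, adjusted p = 0.00687). How reads matching several copies were counted is not given in the sources used here, so the split of counts among these copies is uncertain. A row of the same name, LOC684762, on chromosome 17 is also 411 bases long. It had 15.2 ± 3.33 against 6.05 ± 3.70 normalized counts (SD, n = 5 each) with overlapping groups. Its log2FoldChange of 1.31 (standard error 0.43) was not called (adjusted p = 0.0679).

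**Figure D1:**
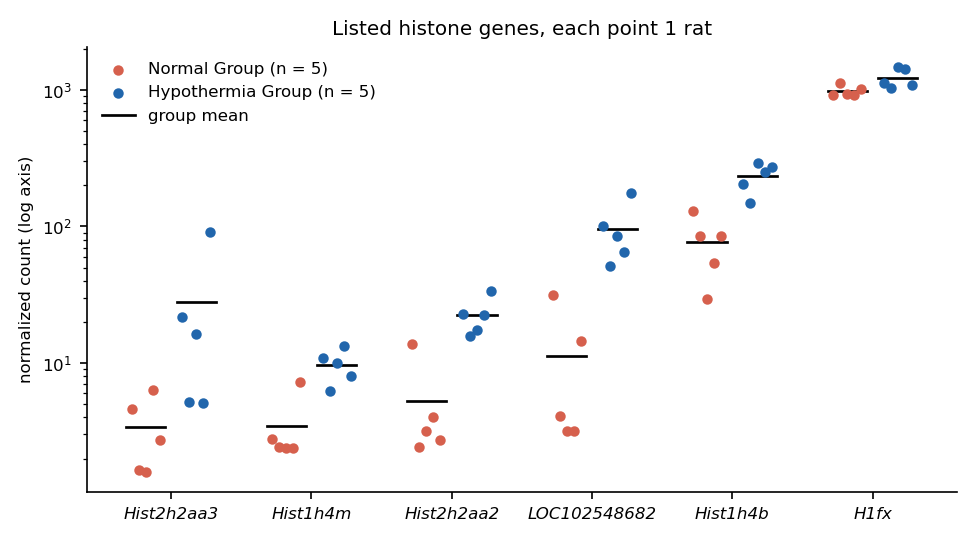
Normalized counts (log axis) of the 6 listed histone genes, with 1 point per rat, Normal Group in red and Hypothermia Group in blue, and a bar at each group's mean. The groups are apart for Hist2h2aa2, LOC102548682 and Hist1h4b and overlap for Hist2h2aa3, Hist1h4m and H1fx.

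H1fx (chromosome 4, 119889371 to 119889949), a linker histone made also outside DNA replication, was the most abundant member, with an FPKM of 127 ± 20.9 on average in the Hypothermia rats against 101 ± 9.22 in the Normal rats (SD, n = 5 each). Its normalized counts were 1113, 1030, 1462, 1416 and 1087 against 909, 1117, 938, 910 and 1012, and the groups overlapped. Its log2FoldChange of 0.32 (standard error 0.11) was not called (adjusted p = 0.0895). The core histone genes together (the 5 other than H1fx) summed to between 228 and 582 normalized counts in the Hypothermia rats and between 39.8 and 183 in the Normal rats.

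Markers of lens fibre cells moved with these histones. Of 24 such markers 22 were listed, all 22 were called higher, and their summed normalized counts ran from 5524985 to 11728490 in the Hypothermia rats and from 851741 to 3959386 in the Normal rats, with no marker at 0 in any rat. Hypothermia replicate 5 was the highest of its group in the marker sum and in the sum of the 5 core histone genes, and Hypothermia replicate 2 the lowest in both. In the Normal Group, replicate 1 was the highest and replicate 3 the lowest in both sums. In bulk capsules, more cells of a type and more RNA per cell cannot be told apart, and the part of fibre RNA in the histone values was not tested.

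Markers of DNA replication and division lay on the other side of 0 from the histones. Of 34 such genes 9 were listed, and all 9 had log2FoldChanges below 0, from -0.86 to -0.30, of which 5 were called lower. Ccnb1, the mitotic cyclin B1, had the lowest of these (-0.86, standard error 0.22, adjusted p = 0.0231), and Bub1, a kinase of the spindle checkpoint, fell from 211 ± 51.5 to 133 ± 32.7 normalized counts (SD, n = 5 each). For 8 of the 9 markers, Ccnb1 and Bub1 among them, the groups overlapped. Slbp, the protein that binds the histone stem-loop, was not called, at a log2FoldChange of -0.30 (standard error 0.11, adjusted p = 0.0901). Casp8ap2, a factor of histone gene transcription, fell by 0.38 on the log2 scale (standard error 0.07, adjusted p = 0.00660). With TMM scaling all 9 listed replication and division markers and all 3 listed genes of histone mRNA processing, Slbp included, were called lower. This scaling moved the median of all tested genes by -0.29 and raised the number called lower among them from 662 to 1104.

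Among the regulators, the 7 called higher were of different kinds and had a median length of 2158 bases, against 6102 for the 29 below 0. Kmt5a (chromosome 12, 37559770 to 37574750), the enzyme that places a first methyl group on histone H4, had normalized counts of 1643, 1456, 2153, 1517 and 1982 in the Hypothermia rats and 1157, 1039, 836, 900 and 1070 in the Normal rats. The groups did not overlap, and the log2FoldChange of 0.81 (standard error 0.13, adjusted p = 0.00506) had the lowest adjusted p of all members. With an FPKM of 109 ± 18.8 against 62.04 ± 8.08 (SD, n = 5 each), it was also the most abundant regulator. Kmt5b (chromosome 1, 219000844 to 219050211), which adds further methyl groups to the same residue, went the other way, with 1449 to 1667 against 1758 to 2059 and a log2FoldChange of -0.26 (standard error 0.07, adjusted p = 0.0347).

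Arid3b (chromosome 8, 62569528 to 62616828), a DNA-binding protein with an AT-rich interaction domain, had the largest rise of the regulators. Its values were 459, 336, 490, 264 and 549 against 248, 173, 101, 133 and 222, with the lowest Hypothermia rat just above the highest Normal rat. The log2FoldChange was 1.26 (standard error 0.26, adjusted p = 0.0119). The other listed genes of the ARID name all fell, namely Arid2 (-0.28), Arid4a (-0.31) and Arid5b (-0.44), and the table lists Arid5b as a processed transcript.

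Setd6, which methylates a subunit of NF-kappaB and other proteins, had 184, 154, 225, 220 and 180 against 154, 119, 117, 106 and 115 and a log2FoldChange of 0.66 (standard error 0.14, adjusted p = 0.0119), and the groups met at Normal replicate 1. Sirt2, a largely cytoplasmic NAD-dependent deacetylase, had 980, 975, 1351, 1041 and 1380 against 1005, 845, 759, 725 and 847, which overlapped, and a log2FoldChange of 0.45 (standard error 0.13, adjusted p = 0.0363). Jmjd8, a JmjC-domain protein of the endoplasmic reticulum, rose by 33.6%, Brd7, a bromodomain subunit of the PBAF remodeler, by 27.5%, and Ino80e, a small subunit of the INO80 remodeler, by 25.3%. For these last 3 genes the groups did not overlap. With each rat left out in turn, the call of Ino80e held in 1 and that of Sirt2 in 4 of 10 fits (Sirt2 lost it without Hypothermia replicates 3 or 5 or Normal replicates 2, 3, 4 or 5, and Ino80e kept it without Hypothermia replicate 4), while the other 5 higher regulators were called in all 10.

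**Figure D2:**
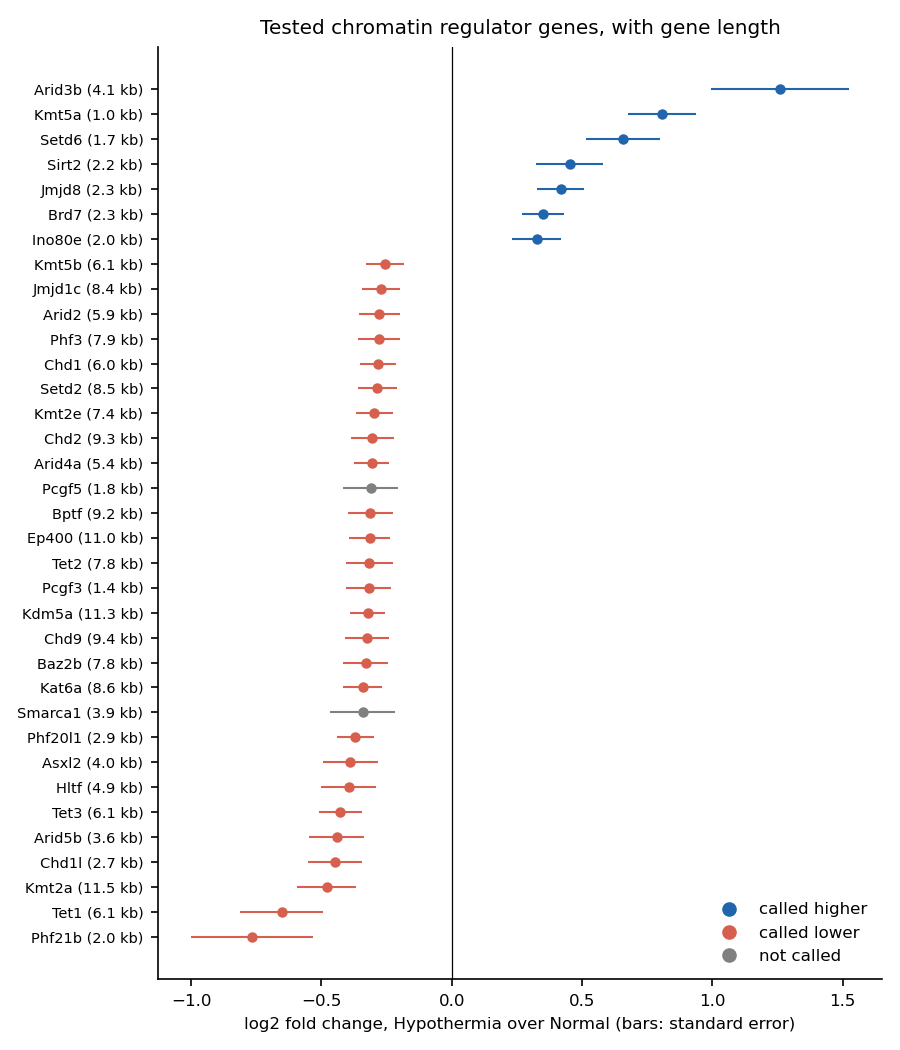
Fold changes (log2, Hypothermia over Normal) of 35 tested regulators with standard errors as bars, gene length in brackets, and colour for the call. Of these genes 7 lie above 0, up to 1.26 for Arid3b, and 28 below, most between -0.26 and -0.45.

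The genes called lower were many and their changes small. The selection of the list left an empty band around 0, so smaller falls were not listed. How alike the falls of regulators are can therefore not be judged from these genes. Over the 29 regulators with log2FoldChanges below 0 the range was -0.77 to -0.26 and the median -0.32, and of these 26 were called. When 1 rat was omitted from the fit, this number dropped to 10 to 25, with 12, 14 and 14 without Hypothermia replicates 3, 4 and 5 and 13, 10 and 11 without Normal replicates 3, 4 and 5. In these 10 fits Phf3 and Phf21b lost the call 9 times, Chd2, Arid2, Jmjd1c and Kmt5b 8 times, Pcgf3, Tet2 and Bptf 7 times, Setd2 and Baz2b 6 times and Hltf and Asxl2 5 times, while Ep400 and Chd9 lost it 4 times and Arid5b and Kmt2e 1 time. Over all 37 regulators, the Hypothermia rats all lay below the Normal rats for 27, where 16.6% of all listed genes did so (16.7% of the tested), and all above for 5, where 41.1% did so (41.9% of the tested). For a single gene with groups apart, the exact permutation test gives p = 0.00794, two-sided, the smallest that 5 against 5 allow.

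All 3 TET genes fell. Tet1 (chromosome 20, 27366213 to 27437427) had normalized counts of 73.6, 110, 70.3, 116 and 86.0 in the Hypothermia rats and 149, 140, 143, 142 and 146 in the Normal rats. The Normal rats were almost level (143.8 ± 3.53, SD, n = 5) and the Hypothermia rats spread widely below them (91.2 ± 20.9, SD, n = 5), with a log2FoldChange of -0.65 (standard error 0.16, adjusted p = 0.0192). Tet3 (chromosome 4, 115066309 to 115157263), the most abundant of the family at an FPKM of 6.54 ± 0.539 against 8.80 ± 0.728 (SD, n = 5 each), had 663, 752, 609, 646 and 634 against 783, 883, 940, 866 and 975 normalized counts. Its log2FoldChange was -0.43 (standard error 0.08, adjusted p = 0.00798). Tet2 ran from 359 to 470 against 479 to 589, a log2FoldChange of -0.32 (standard error 0.09, adjusted p = 0.0373), and its call held in 3 of 10 such fits, those without Hypothermia replicate 2 or Normal replicates 1 or 2.

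Of the methyltransferases, Kmt2a (MLL1, an H3 methyltransferase; chromosome 8, 49114990 to 49158971) had 1404, 1429, 1061, 1278 and 1240 normalized counts against 1535, 1673, 1618, 2102 and 2017. It fell by 28.3% (log2FoldChange -0.48, standard error 0.11, adjusted p = 0.0166), with both groups uneven but apart. Kmt2e (MLL5) fell by 18.6%, and Setd2, the H3 trimethylase of transcribed gene bodies, fell by 17.9%. Among proteins of the JmjC group, Kdm5a, which removes the mark that Kmt2a-type enzymes make, ran from 1713 to 2042 in the Hypothermia Group against a narrow 2338 to 2398 in the Normal rats, with a log2FoldChange of -0.32 (standard error 0.07, adjusted p = 0.0109). Jmjd1c fell by 17.1%. The acetyltransferase Kat6a (MOZ) had 1201 to 1466 against 1662 to 1873, a fall of 21.0%.

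The family of nucleosome remodelers, into which all genes of the ARID name were put, was the largest. It had 15 listed, 14 tested, 11 called lower and 2 (Arid3b and Ino80e) higher. Arid3b, Arid4a and Arid5b were counted here by name alone. Chd1l, a remodeler activated by poly(ADP-ribose), had 222, 259, 295, 298 and 224 normalized counts against 308, 365, 362, 376 and 361 and fell by 26.6% (log2FoldChange -0.45, standard error 0.10, adjusted p = 0.0162). The chromodomain helicases Chd1 fell by 17.8%, Chd2 fell by 19.0% and Chd9 fell by 20.2%, and the groups overlapped by a few counts for Chd2, with 2132 in the highest Hypothermia rat and 2126 in the lowest Normal rat. Ep400, the ATPase of the TIP60 complex, fell by 19.6%, Bptf, the large subunit of NURF, by 19.4%, Baz2b by 20.5%, Arid2 of the PBAF complex by 17.5% and Hltf, a helicase-like protein of stalled replication forks, by 24.0%. Smarca1, an ISWI ATPase, had 78.4 to 96.7 against 103 to 115 and was not called (adjusted p = 0.104) although its groups did not overlap.

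Chd5, a remodeler known mainly from neurons, was listed at few counts. Its normalized counts were 7.23, 1.05, 0, 0 and 6.72 in the Hypothermia rats and 13.9, 8.18, 20.7, 25.6 and 57.7 in the Normal rats, lower in each Hypothermia rat than in any Normal rat, with replicate 5 the highest of the Normal Group. It failed the filter on low counts, and without the filter its log2FoldChange was -3.08 (standard error 0.82, adjusted p = 0.0280). Of 20 retinal and ciliary markers 7 were listed, and their summed normalized counts ran from 217 to 458 in the Hypothermia rats and from 432 to 1723 in the Normal rats, where replicate 5 was also the highest. Of these 7, 4 were tested, all below 0 and 1 (Pmel) called, and 3 of the 7 were at 0 in at least 1 rat. Of 13 fibroblast and vessel markers 4 were listed, 2 of them called lower (Fn1 and Pdgfrb), with sums from 1424 to 5692 against 3092 to 31478. Of 10 lens epithelium markers 2 were listed, with Pax6 called lower (-0.26) and Gja1 not (-0.43), and of 11 blood and immune markers 0 were listed. The part of any of these in the Chd5 values was not tested.

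Of the Polycomb-linked genes, Asxl2, a partner of the deubiquitinase that acts on H2A, fell by 23.6% and Pcgf3, a subunit of a variant Polycomb complex, fell by 19.8%, while the related Pcgf5 was not called (log2FoldChange -0.31, standard error 0.11, adjusted p = 0.0761). For all 3 the groups did not overlap. Among the PHD finger proteins, Phf20l1, a reader of methylated lysine, had 421, 434, 375, 394 and 399 normalized counts against 564, 540, 511, 478 and 523. It had the lowest adjusted p of the members that fell (0.00787, log2FoldChange -0.37, standard error 0.07). Phf3, which binds RNA polymerase II, fell by 17.5%. Phf21b had the largest fall among tested members (log2FoldChange -0.77, standard error 0.23, adjusted p = 0.0494), but Normal replicate 1, with 33.3, lay among the Hypothermia rats (29.3 to 37.8) while the other Normal rats lay between 50.4 and 67.9, and the call held in 1 of 10 leave-one-out fits, the one without Normal replicate 1.

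**Figure D3:**
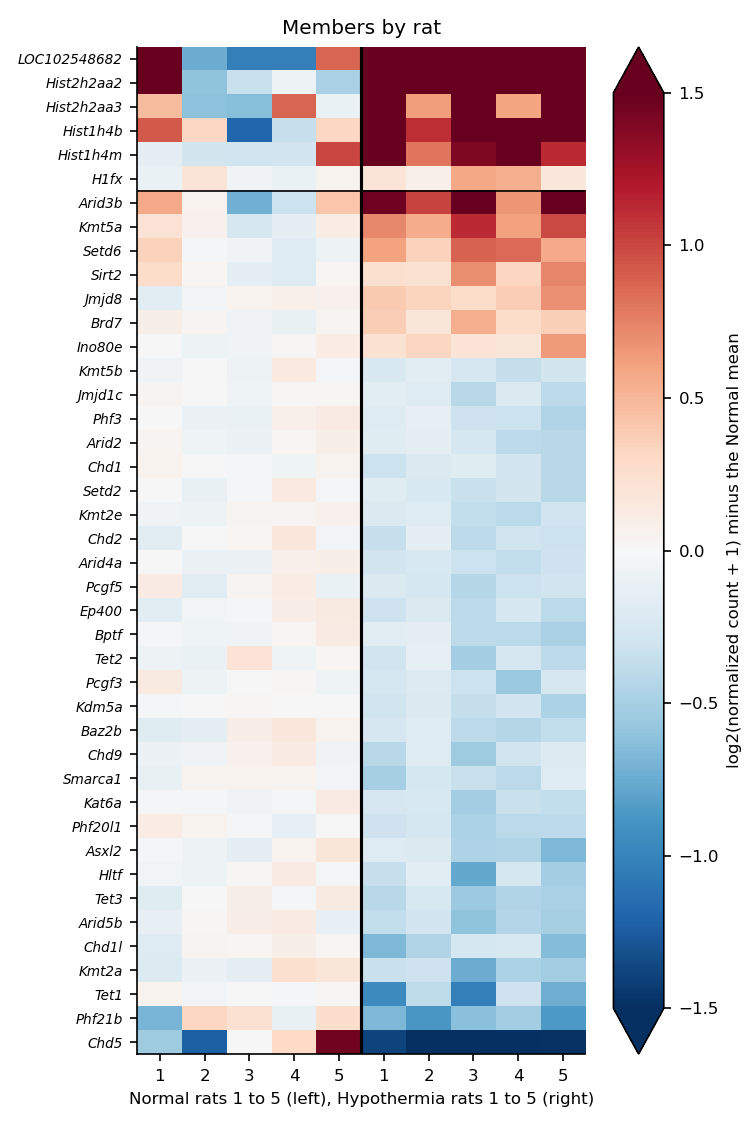
Values of 42 members by rat, as log2(normalized count + 1) minus the mean of the Normal Group, with histones above the line and colours that saturate at 1.5 in either direction. The 5 core histone genes and Arid3b are raised in each Hypothermia rat. Most lower regulators form a pale band that is somewhat deeper in Hypothermia replicates 3 and 5, while Chd5, Tet1 and Phf21b fall further.

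Gene length moved with direction across the whole list and among the members. The tested listed genes were put into 5 classes of about equal size by the gene length in the table. In the class of shortest genes (up to 1093 bases) 77.8% were called higher and 2.79% lower, and in the class of longest genes (4192 bases and over) 19.9% and 45.8%, with median log2FoldChanges of 0.65 and -0.33. Across genes, which are not independent replicates, Spearman's rho of length and log2FoldChange was -0.43 over the 3222 tested genes and -0.20 over the 36 tested regulators. All 4 tested histones fell in the class of shortest genes and 21 of the 36 tested regulators in that of the longest, of which 20 were called lower.

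Measured against the median of their own length class, the median difference of the regulators was 0.01 on the log2 scale, in place of -0.31 against 0. The 3 called histones stayed 0.96 to 2.44 above their class, Arid3b was 1.51 above and Tet1 0.33 below, whereas H1fx was 0.33 below its class. Pcgf3, Pcgf5 and Phf21b, which had lower values in length classes with positive medians, lay 0.74, 0.73 and 1.10 below theirs. Since every listed gene had been selected for a change, these medians describe changed genes of each length and not all genes. RNA had been accepted at an integrity number of at least 5.8, values per sample were not used here, and the part of RNA quality in the relation with length was not tested.

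**Figure D4:**
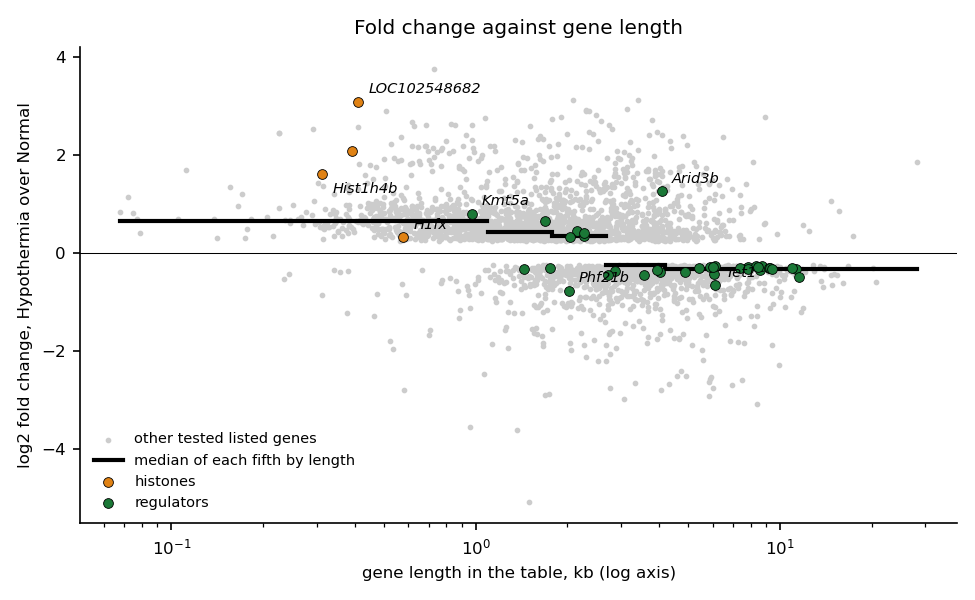
Fold changes (log2, Hypothermia over Normal) against gene length (kb, log axis) of the 3222 tested genes, with histones in orange, regulators in green and black bars at the median of each of the 5 length classes. The empty band around 0 is left by the selection of the list, and the medians run from 0.65 in the shortest class to -0.33 in the longest.

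Other genes of chromatin were read from 8 lists holding 183 names outside the families above (histone chaperones, histone mRNA processing, Polycomb and HP1, other methyltransferases, acetyltransferase, deacetylase and remodeler complexes, and DNA methylation readers). Of these names 36 were listed in 37 rows, and 15 rows were called higher, 12 lower and 9 not, with 1 too low to test. With TMM scaling computed on the listed genes the balance turned round, to 3 called higher and 16 lower. Over all tested genes it turned as well, from 1686 higher and 662 lower to 641 and 1104. Among the chaperones, Nap1l4 and Nap1l1, which carry H2A and H2B, were by far the most abundant, with Nap1l4 rising from 6554 ± 1972 to 14188 ± 3278 normalized counts (SD, n = 5 each; log2FoldChange 1.11, standard error 0.22, adjusted p = 0.00849) and Nap1l1 by 0.86 (standard error 0.21, adjusted p = 0.0214). Supt16h, a subunit of the FACT chaperone, fell by 0.27 on the log2 scale (standard error 0.07, adjusted p = 0.0270).

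Listed subunits of the Kmt2a complexes did not all move one way. Dpy30 and Ash2l, core subunits of the complexes that hold Kmt2a, had log2FoldChanges of 0.96 (standard error 0.15, adjusted p = 0.00506) and 0.57 (standard error 0.12, adjusted p = 0.0121), opposite in sign to Kmt2a. Mbd3, a subunit of the NuRD deacetylase complex, rose by 0.72 (standard error 0.10, adjusted p = 0.00459). The paralogs Sin3a and Sin3b differed in sign, at -0.30 (standard error 0.07, adjusted p = 0.0142) and 0.47 (standard error 0.10, adjusted p = 0.0104). The gene lengths in the table were 787 bases for Dpy30 and 1103 for Sin3b against 4678 for Sin3a. The median log2FoldChanges of their length classes were 0.65, 0.42 and -0.33, in this order. Ash2l (2423 bases) and Kmt2a (11532 bases) lay in classes with medians of 0.34 and -0.33. Each of these genes had the sign of its class median. The groups of Ash2l overlapped. With TMM scaling, the genes called higher went from 3 to 1 in the methyltransferase list that holds Dpy30 and Ash2l. They went from 3 to 1 also in the deacetylase list that holds Mbd3 and Sin3b. Over all tested genes they went from 1686 to 641. Nsd1, another H3 methyltransferase, fell by 0.31 (standard error 0.07, adjusted p = 0.0179).

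The number of regulators called higher depended on the scaling. With TMM computed on the listed genes the median of all genes moved by -0.29, and 2 regulators (Kmt5a and Arid3b) were called higher and 30 lower, while the same 3 histones were called. Of called regulators, 21.2% were higher with the authors' size factors and 6.25% with TMM. Over all called genes these shares were 71.8% and 36.7%. On TMM, Kmt5a had a log2FoldChange of 0.51 and Arid3b one of 0.97, and Brd7, Jmjd8 and Ino80e were at 0.06, 0.13 and 0.04.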

How the data were processed

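Lens capsule RNA-seq libraries came from 10 rats, 5 per group. The authors aligned reads to Rnor_6.0 with HISAT2 2.0.5, and the deposited counts are whole reads per gene from featureCounts 1.5.0-p3, without normalization. The annotation release, the handling of reads matching several genes and any poly(A) selection are not given in the sources used here. The authors deposited FPKM computed on gene length. Group means of normalized counts were also deposited (a signal). The authors' own comparison with DESeq2 1.16.1 (deposited log2 fold changes and raw and adjusted p-values) was not used.

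The authors' size factors were recovered from the group means by least squares (largest relative error 4.9e-10). Library sizes were these factors times the constant that the FPKM values imply. The whole table was filtered by filterByExpr and tested with the robust quasi-likelihood F-test of edgeR 4.0.16 under R 4.3.3, on group alone. Standard errors were derived from F. Single genes were compared with exact permutation tests on log2(normalized count + 1), two-sided. Self-tests were run on simulated counts. Alternatives were scaling by TMM, by median-of-ratios or by the summed counts of the listed genes, DESeq2 1.42.0, no filter, adjustment over the tested genes, a replicate block and each rat left out in turn. The comparison by gene length was added after seeing the data.

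Members and lists were chosen with earlier results of these data known. The rule named every histone, a fixed list of major regulators, the 8 tested regulators that rose most and the 8 that fell most, the most abundant member of each family and the 2 highest and 2 lowest called genes of each other list. The remaining members, LOC684762 and Slbp were named after their values were seen. RefSeq promoter windows (GRCr8) were matched for 33 members, 4 of them histones. Samples are different animals, 1 rat each. The values of 1 member are not reported here, although it is included in the counts and medians. Figures were drawn with matplotlib 3.10.9.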

Additional observations from a re-analysis of the deposited data

Results flagged for a closer look

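In 86 sets of 5 rats (43 members in 2 groups), 8 had a rat whose gap to its nearest neighbour exceeded 0.710 of the whole range, where chance gives about 5% of sets. Among the histones, these were Hist2h2aa3 in Hypothermia replicate 5 (normalized count 91.4, the others 5.10 to 21.7), Hist2h2aa2 in Normal replicate 1 (13.9, the others 2.45 to 4.00) and Hist1h4m in Normal replicate 5 (7.32, the others 2.39 to 2.77). Among the regulators, Normal replicate 1 was the highest of its group for Setd6 (154, the others 106 to 119) and the lowest for Chd1l (308, the others 361 to 376). Hypothermia replicate 5 was the highest for Jmjd8 (587, the others 441 to 477) and Ino80e (576, the others 419 to 460), and Normal replicate 5 for Kat6a (1873, the others 1662 to 1709).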

How the results depend on the processing

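The members were called higher for 3 histones and 7 regulators and lower for 0 histones and 26 regulators, with medians of 1.85 and -0.31. Both medians kept their sign under every alternative against 0. With TMM and with median-of-ratios factors 2 regulators were called higher (3 for TMM with adjustment over the tested genes), and their median was -0.60 and -0.62 (-0.60 for TMM with that adjustment). With totals of the listed genes the median of all genes shifted by -1.23, 1 histone was called higher and 1 lower, no regulator (0) was called higher, the medians were 0.70 for histones and -1.54 for regulators, and the signs of Kmt5a (-0.43), Setd6 (-0.56), Brd7 (-0.89), Jmjd8 (-0.85), Ino80e (-0.92), Sirt2 (-0.79) and H1fx (-0.92) reversed with the shift. Against length-class medians the histone median was 1.20 and the regulator median 0.011. Called numbers over all genes were 1686 higher and 662 lower, 641 and 1104 with TMM, 1959 and 979 with DESeq2, and 2052 and 1169 with adjustment over the tested genes. DESeq2 with the authors' size factors changed no call among the 40 members tested in both.

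With the replicate block, 3 regulators were called higher (Kmt5a, Arid3b and Jmjd8) and 3 lower (Tet3, Phf20l1 and Chd1l), and 3 histones higher. Same-numbered rats are different animals, and the correlations of their deviations ran from -0.17 to 0.23, so the numbers were not taken as pairs.

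With each rat left out in turn, 3 histones were called higher in every fit, 5 to 7 regulators higher and 10 to 25 lower, with medians of 1.68 to 2.34 for histones and -0.34 to -0.29 for regulators. The number called lower was 12, 14 and 14 without Hypothermia replicates 3, 4 and 5 and 13, 10 and 11 without Normal replicates 3, 4 and 5. Of the 26 regulators called lower, 9 were called in all 10 such fits and 13 lost the call in 5 or more. The counts behind Hist1h4m, Hist2h2aa3 and Chd5 are too few for the main test.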
